A study of Homo sapiens with 6 samples.

Results

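The IL-6 and LIF family studied here comprised the ligand genes IL6, LIF, IL11, OSM, CTF1 and CLCF1 and the receptor genes IL6R, IL6ST, LIFR and OSMR. The members were taken by symbol: each array row, that is each probe set for an exon region or an exon junction, was used where the platform annotation gave exactly 1 of these symbols. All 10 genes had rows, 287 of the 924687 rows tested, and they were 10 of the 22085 genes with a value. RNA came from BT549 cells, an established human triple-negative breast cancer line of mesenchymal type, whose pTripZ-200c construct expresses the microRNA miR-200c when doxycycline is added. In 3 cultures miR-200c was induced with 1 µg/mL doxycycline for 48 h, and 3 cultures of the same cells were left untreated for 48 h. Both groups carried the construct and grew attached in RPMI with serum. Drug and microRNA came together in the treated cultures and cannot be told apart. The labels do not say whether the cells were 1 clone, and a single line and construct were used. The replicates are named as biological ones and were plated in triplicate, so errors and tests measure only how much these 6 cultures varied.

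Cytokines of this family are secreted proteins that signal through the shared receptor subunit gp130, the product of IL6ST. Interleukin-6 first binds IL6R, LIF brings gp130 together with LIFR, and oncostatin M (OSM) uses gp130 with OSMR or LIFR. The assembled receptors act through JAK kinases and the transcription factor STAT3, which switches on the feedback inhibitor SOCS3. In breast cancer and other carcinomas IL-6 and LIF are known as signals of inflammation, of mesenchymal states and of communication with immune cells.

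The mature strands of the induced microRNA are shown because they define the treatment. They come from RefSeq, build GRCh38.p14, plus strand of chromosome 12, at chr12:6963742-6963764 for the 3p strand and chr12:6963703-6963724 for the 5p strand. Capitals mark the seed, bases 2 to 8.
hsa-miR-200c-3p: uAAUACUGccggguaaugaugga
hsa-miR-200c-5p: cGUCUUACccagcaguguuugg

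Values are log2 intensities, and a gene's value is the mean over its rows. The 6 arrays had median log2 intensities between 5.18 and 5.21, and over genes any pair of arrays correlated at 0.994 or more. The 23 background rows reached 6.36, and levels under this are described as within the background range. The number of arrays limits the precision of every value, and levels of different genes are not set against each other, since their probes differ. The MIR200C row had values of 9.50, 9.53 and 9.55 in doxycycline, against 4.67, 5.15 and 5.07 untreated. ZEB1, a known miR-200 target, had a log2 change of -0.77 (SE 0.036, adjusted p = 1.07e-05 by limma). VIM was high in both groups, with mean log2 intensities of 10.37 in doxycycline and 10.46 untreated, and ESR1 and PGR lay within the background range in both. The 7 measured leukocyte and endothelial markers also lay within that range in both groups, from 4.24 to 5.14 in doxycycline and from 4.26 to 5.18 untreated.

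The question asked of the family is which ligand and receptor transcripts differ once miR-200c is induced. In doxycycline the ligand genes LIF and IL6 were lower and the receptor gene LIFR was slightly higher, while the other 7 members did not pass the test. The count of 2 lower genes of 10 stands beside 3.84% of all 22085 genes called lower, and the count of 1 higher gene of 10 beside 6.06% of all genes called higher. The calls are at an adjusted p under 0.05 by limma over all genes. The median log2 change of the 10 genes was -0.04, and that of all genes was -0.01.

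**Figure D1:**
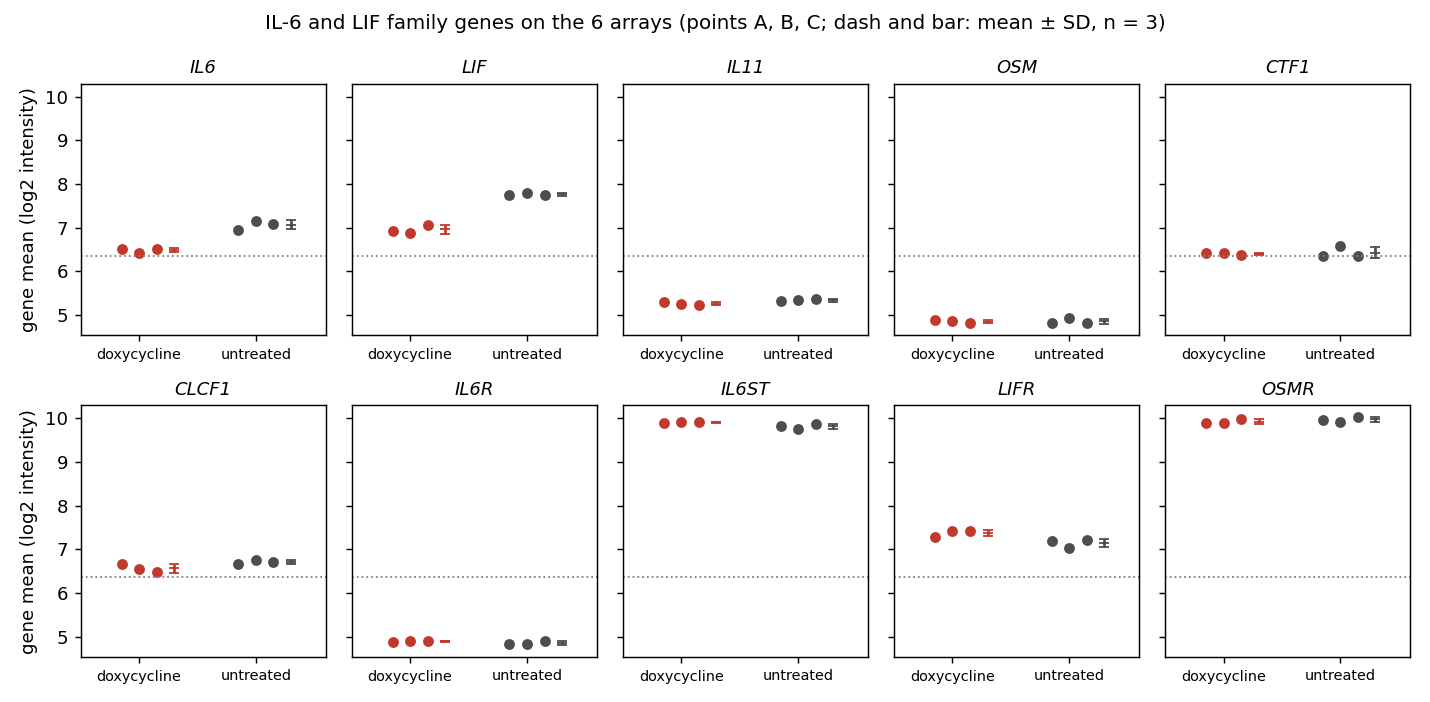
Gene means in log2 intensity (y axis) for the 10 family genes on each array, with doxycycline cultures left (red) and untreated cultures right (grey); points are replicates A, B and C, the dash and bar give mean ± SD (n = 3), and the dotted line at 6.36 is the highest background value. LIF and IL6 are lower in doxycycline with no overlap, LIFR is higher by a small step, and IL11, OSM and IL6R lie below the dotted line.

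LIF, which encodes leukemia inhibitory factor, had the largest change of the gene means among the members. With brighter rows alone the order turned, with -0.89 for LIF and -0.99 for IL6. Those brighter rows were 193 of the 287 member rows, a wider set than the 161 above the background range in at least 1 group. Among rows above that range LIF still had the larger median log2 change, -0.9993 (7 rows) beside -0.9003 for IL6 (11 rows). The LIF gene mean was 6.92, 6.89 and 7.07 log2 units in the doxycycline cultures, against 7.74, 7.79 and 7.75 in the untreated cultures. Every doxycycline value lay below every untreated value, by far more than the spread within either group. The log2 change was -0.80 (SE 0.050, 95% interval from -0.92 to -0.69, adjusted p = 3.80e-05 by limma), so that the mean level was 0.574 times the untreated one. LIF had 10 rows, and 9 of them had a negative change. In 7 of the 10 every doxycycline value lay below every untreated value, beside 7.47% of all 924687 rows, with log2 changes from -1.57 to -0.82. Of these rows 3 passed the test over all rows.

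The LIF row that changed most was the exon region PSR22011280.hg.1. It read 7.08, 7.02 and 7.13 log2 units in doxycycline, against 8.58, 8.62 and 8.74 untreated. The groups were well apart and each was tight, with a log2 change of -1.57 (SE 0.079, adjusted p = 0.00140 by limma over all rows). This row also fell beyond its gene, by 0.77 relative to the LIF gene mean (adjusted p = 0.0302 by limma over 668905 rows). That mean includes 3 rows within the background range, with a median change of -0.145, beside -0.9993 for the 7 rows above it. PSR22011280.hg.1 was the only member row called uneven in this way, 1 of 287, beside 0.186% of all rows tested. At an unadjusted p under 0.05 by limma the count was 52 of 287, beside 8.27% of all rows tested. Most IL6 rows are among the 52, dim ones above their gene mean and bright ones mostly below it. Relative to that mean JUC07001038.hg.1 (4.46 in doxycycline, 4.42 untreated) changed by 0.62 and JUC07001034.hg.1 (7.56 and 8.95) by -0.81. Row brightness and differing transcripts were not told apart in this count. The uneven call of PSR22011280.hg.1 was lost with any 1 of the 6 arrays left out, and among brighter rows alone. The fall of PSR22011280.hg.1 itself stayed past the threshold in each of 10 refits.

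IL6, which encodes the inflammatory cytokine interleukin-6, was the other ligand gene that fell. Its gene mean was 6.52, 6.43 and 6.51 log2 units in doxycycline, against 6.95, 7.16 and 7.08 untreated. The groups did not overlap, and the highest doxycycline value was below the lowest untreated value by more than either SD. The log2 change was -0.58 (SE 0.055, 95% interval from -0.70 to -0.45, adjusted p = 3.65e-04 by limma), a level of 0.671 times the untreated one. Changes were larger in the brighter rows of IL6. Of its 21 rows 11 lay above the background range in both groups, with a median log2 change of -0.90, and the 10 within it had a median of -0.11. The mean of the brighter rows alone gave a log2 change of -0.99. The median level of all 21 rows, 10 of them dim, gave -0.14 and did not pass (adjusted p = 0.733).

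Among the rows of IL6, 7 fell past the threshold over all rows. The largest change was in the exon junction JUC07001036.hg.1, with 7.066, 6.004 and 7.009 log2 units in doxycycline and 8.645, 8.711 and 8.534 untreated. Replicate B was the lowest of the doxycycline values, and no value overlapped the untreated ones (log2 change -1.94, SE 0.27, adjusted p = 0.0391 by limma). This call was lost without any 1 array other than doxycycline replicate B, with adjusted p from 0.0671 to 0.143. The row with the smallest p was the exon region PSR07002120.hg.1, at 7.33, 7.15 and 7.25 log2 units in doxycycline and 8.27, 8.57 and 8.28 untreated (log2 change -1.13, SE 0.11, adjusted p = 0.00997 by limma). In that row too the groups were well apart.

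The promoter of IL6 is shown because IL6 fell and its promoter holds matches to motifs of inflammatory transcription factors. It spans 250 bases before to 50 after the gene start, from RefSeq, build GRCh38.p14, plus strand, chr7:22726950-22727249. Capitals mark a C/EBP match (TTGCNNAA), which starts 155 bases before the gene start, and an NF-kappaB match (GGGANNTTCC), which starts 73 bases before it.
IL6: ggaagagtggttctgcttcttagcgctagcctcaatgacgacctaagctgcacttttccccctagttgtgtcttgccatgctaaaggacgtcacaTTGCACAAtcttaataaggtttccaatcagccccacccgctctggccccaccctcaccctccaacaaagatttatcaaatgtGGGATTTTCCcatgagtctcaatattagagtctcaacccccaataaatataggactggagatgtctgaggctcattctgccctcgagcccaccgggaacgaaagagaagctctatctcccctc

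Both strands were searched, and 1.61% of 35116 promoters of the same length held the NF-kappaB motif and 10.5% the C/EBP motif. The AP-1 motif (TGANTCA, in 7.71% of promoters), the STAT motif (TTCNNNGAA, in 7.66%) and the ZEB1 E-box (CAGGTG, in 20.6%) had no match in this window. Promoters were at hand for 6 of the 10 genes, IL6, IL11, IL6R, IL6ST, LIFR and OSMR, with 3 entries for LIFR. AP-1 matches stood in those of IL11, IL6R and OSMR, a C/EBP match in that of OSMR and in 1 of the LIFR entries, a STAT match in 2 of the LIFR entries, and an E-box in that of IL6R. The IL6ST promoter and the third LIFR entry matched none of the 5 motifs. A match is a description of the sequence and says nothing on binding in these cells.

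The other ligand genes did not pass the test. CLCF1, which encodes cardiotrophin-like cytokine factor 1, a partner of gp130 and LIFR, had gene means of 6.67, 6.54 and 6.48 in doxycycline and 6.67, 6.75 and 6.70 untreated. Doxycycline replicate A stood at the level of the untreated cultures, and the others were lower. The log2 change was -0.14 (95% interval from -0.26 to -0.02) with an adjusted p of 0.150 by limma. Without doxycycline replicate A the change was -0.20 and the adjusted p 0.0392, which passes. All 7 CLCF1 rows above the background range had a negative change, from -0.59 to -0.16, and none passed over all rows. At an unadjusted p under 0.05 by limma 2 of the 11 CLCF1 rows were lower and 0 higher, beside 4.62% and 5.52% of all rows.

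CTF1, which encodes cardiotrophin-1, averaged 6.40 ± 0.029 in doxycycline and 6.43 ± 0.13 untreated (SD, n = 3), close to the top of the background range. Its untreated replicate B, at 6.58, stood above the other 5 arrays, and the groups overlapped (log2 change -0.03, 95% interval from -0.17 to 0.11, adjusted p = 0.862 by limma). IL11, the gene of a cytokine that signals through its own receptor and gp130, averaged 5.26 ± 0.036 in doxycycline and 5.34 ± 0.031 untreated, within the background range. The values did not overlap, but the log2 change of -0.08 did not pass (95% interval from -0.16 to 0.003, adjusted p = 0.248 by limma). OSM averaged 4.85 ± 0.036 in doxycycline and 4.86 ± 0.059 untreated, and all 10 of its rows lay within the background range. OSM is the nearest protein-coding neighbour of LIF on chromosome 22 in the RefSeq order, and its change of -0.01 had a 95% interval from -0.10 to 0.08 (adjusted p = 0.929 by limma).

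LIFR, which encodes the receptor subunit for LIF, was the receptor gene that rose. Its gene mean was 7.29, 7.42 and 7.41 log2 units in doxycycline, against 7.19, 7.03 and 7.22 untreated. The groups did not overlap, but the gap between doxycycline replicate A and untreated replicate C was smaller than the untreated SD of 0.099. The log2 change was 0.23 (SE 0.057, 95% interval from 0.10 to 0.36, adjusted p = 0.0397 by limma), a level of 1.17 times the untreated one. The call was lost without doxycycline replicate B (adjusted p = 0.148), doxycycline replicate C (0.129), untreated replicate A (0.0753) and untreated replicate B (0.0702). With the replicate letter as a block the adjusted p was 0.0569. The median level over the LIFR rows changed by 0.45, which did not pass either (adjusted p = 0.100).

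LIFR had 64 rows with a median log2 change of 0.26, and 17 of them had a negative change. In 20 rows every doxycycline value was higher than every untreated value and in 2 every one was lower, beside 7.8% and 7.47% of all rows. The exon junction JUC05009297.hg.1 had the largest change, with 7.82, 7.78 and 8.08 log2 units in doxycycline and 7.35, 6.89 and 6.75 untreated. This row did not pass the test (log2 change 0.89, SE 0.17, adjusted p = 0.0928 by limma over all rows). No LIFR row passed over all rows. At an unadjusted p under 0.05 by limma 23 of 64 were higher and 0 lower, beside 5.52% and 4.62% of all rows. The brightest row, PSR05018036.hg.1, had a change of -0.19, with 12.16, 12.06 and 11.85 log2 units in doxycycline and 12.21, 12.26 and 12.15 untreated, and the groups overlapped there.

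IL6ST, the gene of the shared subunit gp130, had 9.90, 9.91 and 9.92 log2 units in doxycycline, against 9.83, 9.75 and 9.87 untreated. All doxycycline values were higher, and the lowest of them stood above the highest untreated value by less than the untreated SD of 0.061. The log2 change was 0.09 (95% interval from 0.004 to 0.18) and did not pass over all genes (adjusted p = 0.207 by limma). Its 64 rows had a median log2 change of 0.12 and a highest of 0.40, and 13 of them had a negative change. Of the 44 rows above the background range 43 had a positive change. In 14 of the 64 rows every doxycycline value was higher than every untreated value and in 2 every one was lower, beside 7.8% and 7.47% of all rows. Rows of a gene share the same arrays and transcripts, so that these counts are no replicates of the gene's change. No IL6ST row passed over all rows. At an unadjusted p under 0.05 by limma 3 of 64 were higher and 1 lower, beside 5.52% and 4.62% of all rows.

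OSMR, the gene of the oncostatin M receptor subunit, is the next protein-coding gene to LIFR on chromosome 5. It had 9.89, 9.90 and 9.99 log2 units in doxycycline, against 9.97, 9.92 and 10.04 untreated. The groups overlapped, and the log2 change was -0.05 (95% interval from -0.15 to 0.05, adjusted p = 0.618 by limma). Of the 51 OSMR rows 38 had a negative change. In 14 rows every doxycycline value was lower than every untreated value and in 1 every one was higher, beside 7.47% and 7.8% of all rows. No OSMR row passed over all rows. At an unadjusted p under 0.05 by limma 2 were lower and 1 higher, beside 4.62% and 5.52% of all rows. IL6R, the gene of the ligand-binding IL-6 receptor, averaged 4.89 ± 0.012 in doxycycline and 4.86 ± 0.042 untreated, within the background range (log2 change 0.03, 95% interval from -0.05 to 0.11, adjusted p = 0.670 by limma). Only 3 of its 38 rows lay above that range. The brightest of them, JUC01010636.hg.1, averaged 9.49 in doxycycline and 9.38 untreated, and its change of 0.11 did not pass. In these bulk cultures, fewer cells with a transcript and less transcript per cell cannot be told apart.

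**Figure D2:**
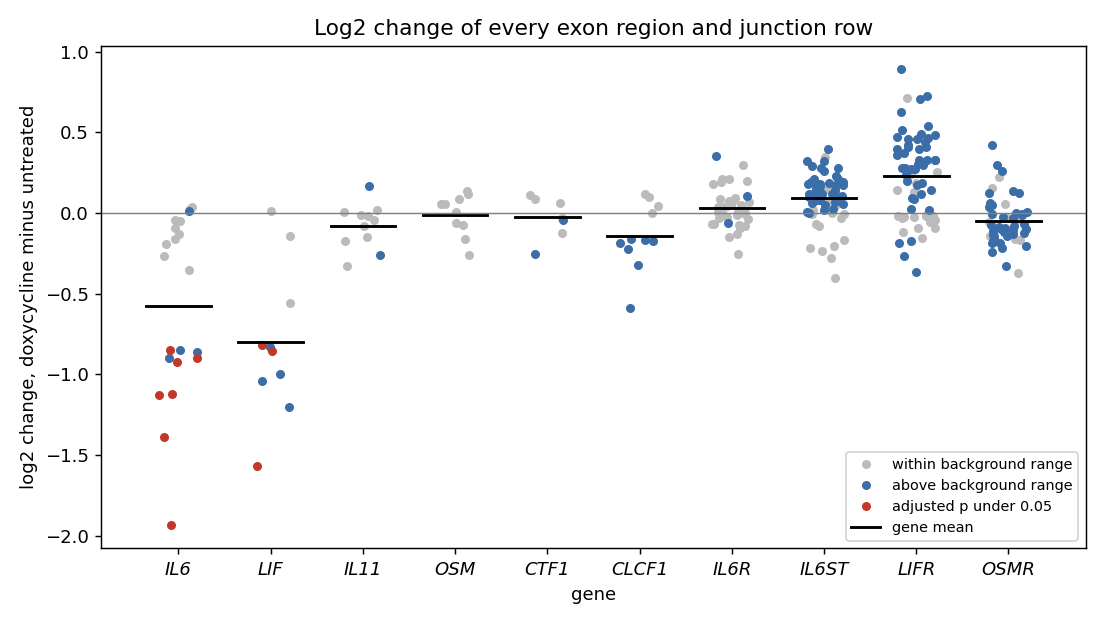
Log2 change, doxycycline minus untreated (y axis), of each of the 287 exon region and junction rows, by gene (x axis); grey points lie within the background range in both groups, blue points above it in at least 1 group, red points have an adjusted p under 0.05, and the black bar is the change of the gene mean. The 10 red points belong to IL6 and LIF, most blue points of LIFR and IL6ST lie above 0, and 30 of the 40 blue points of OSMR lie below it.

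Over all rows of the family 10 fell and 0 rose past the threshold. That is 3.48% of 287 rows lower, beside 0.277% of all 924687 rows called lower and 0.451% called higher. All 10 belonged to IL6 (7 rows) and LIF (3 rows). At an unadjusted p under 0.05 by limma 26 member rows were lower, 20 of them in IL6 and LIF, and 29 were higher, 23 of them in LIFR, beside 4.62% of all rows lower and 5.52% higher at that threshold. Leaving out 1 array left between 2 and 4 rows called lower, and the fit with the replicate letter as a block called 1. The count was 4 without doxycycline replicate A or untreated replicate A and 2 without any other array.

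**Figure D3:**
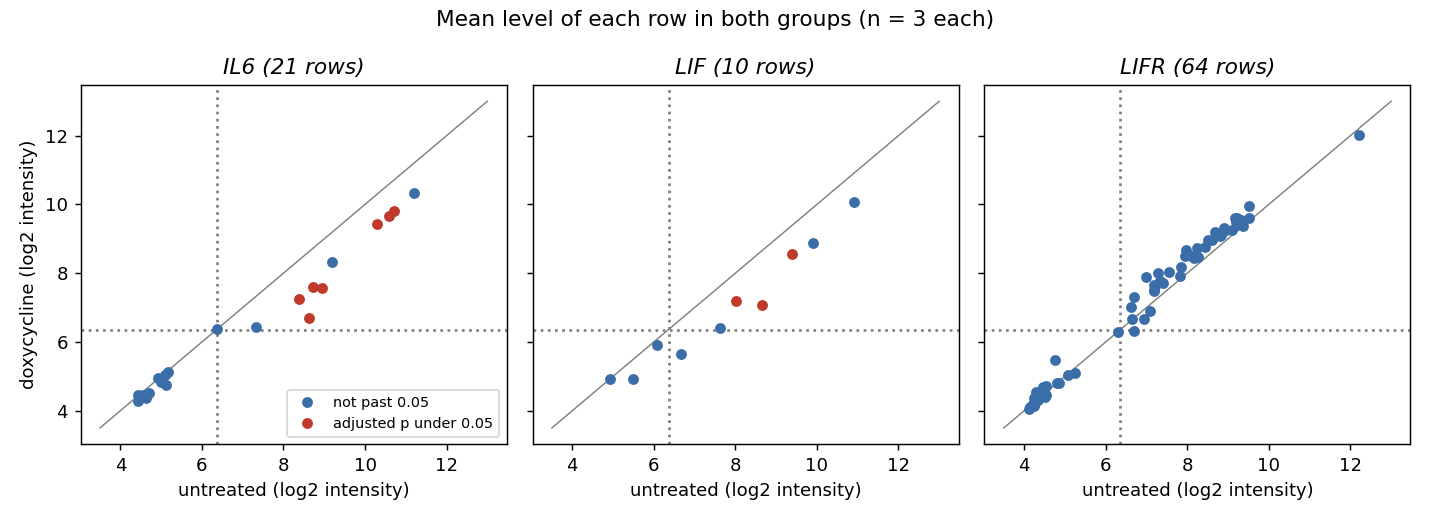
Mean log2 intensity of each row in doxycycline (y axis) against untreated (x axis), n = 3 each, for IL6, LIF and LIFR; the diagonal marks equal levels, dotted lines mark the highest background value of 6.36, and red points have an adjusted p under 0.05. Bright rows of IL6 and LIF lie under the diagonal, 1 IL6 row at 6.37 in doxycycline and 6.36 untreated lies on it, and most bright LIFR rows lie slightly over it.

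Other genes of the pathway were taken from lists of general knowledge. The list called the gp130 group here held related cytokine and receptor genes, and not all of them signal through gp130. In this list (IL11RA, CNTFR, IL27RA, IL31RA, IL27, EBI3 and IL31 measured) 0 of 7 genes fell and 0 rose by limma, beside 3.84% and 6.06% of all genes. At an unadjusted p under 0.05 the counts were 1 and 0, beside 9.34% of all genes lower and 12.5% higher. With 7 genes these counts do not set the list apart from all genes. IL31RA, the receptor gene next to IL6ST on chromosome 5, had 7.40, 7.35 and 7.50 log2 units in doxycycline, against 7.65, 7.45 and 7.66 untreated. Its groups overlapped, and the difference of -0.17 did not pass (adjusted p = 0.150 by limma). IL27RA, a gp130 partner for interleukin-27, changed by 0.11 with an adjusted p of 0.266, and 6 of the 7 genes lay within the background range in both groups. Without untreated replicate B the list had 1 lower gene, IL31RA, at -0.24.

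Among 11 measured genes of JAK-STAT signalling 1 fell and 1 rose, beside the 3.84% and 6.06% of all genes. PTPN11, which encodes the phosphatase SHP2 that couples gp130 to the MAP kinase pathway, fell by 0.21 on the log2 scale (adjusted p = 0.0132 by limma). It had 10.05, 10.00 and 9.93 log2 units in doxycycline, against 10.20, 10.23 and 10.18 untreated. STAT3, the main transcription factor downstream of gp130, rose by 0.16 (adjusted p = 0.0248). It had 10.73, 10.65 and 10.74 log2 units in doxycycline, against 10.53, 10.56 and 10.53 untreated. The groups were apart for both genes, but the STAT3 call was lost without doxycycline replicate A or C or untreated replicate A or C, and the PTPN11 call without doxycycline replicate B. JAK1, the main kinase at gp130, had a change of -0.10 with an adjusted p of 0.103.

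Of 15 inhibitors of this signalling 3 rose and 0 fell by limma, beside 6.06% of all genes higher and 3.84% lower. At an unadjusted p under 0.05 the counts were 3 and 2, beside 12.5% of all genes higher and 9.34% lower. PIAS2, an inhibitor of STAT proteins, rose by 0.24 (adjusted p = 0.0218) and PTPN2, a phosphatase of JAK and STAT proteins, rose by 0.19 (adjusted p = 0.0269). SOCS3, the feedback inhibitor of gp130, rose by 0.19 (adjusted p = 0.0447), with both means within the background range. It had 6.01, 5.93 and 5.97 log2 units in doxycycline, against 5.88, 5.74 and 5.73 untreated, and the median level of the 5 SOCS3 rows changed by -0.04 (adjusted p = 0.946). With 1 array left out the list had between 0 and 2 higher genes: 0 without doxycycline replicate B or C and 1 without untreated replicate B or C. Of 4 genes for shedding of receptors from the cell surface none passed in either direction by limma, beside 3.84% of all genes lower and 6.06% higher. At an unadjusted p under 0.05 the counts were 0 lower and 1 higher, beside 9.34% and 12.5% of all genes. With 4 genes these counts do not set the list apart from all genes. RHBDF2, a partner of the protease ADAM17, changed by 0.10 (adjusted p = 0.172) and ADAM10, a protease that sheds IL6R, by 0.003 (adjusted p = 0.967).

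Of 30 measured genes of a STAT3 target list 4 fell and 3 rose, beside 3.84% of all genes lower and 6.06% higher, and 13 lay within the background range in both groups. At an unadjusted p under 0.05 by limma 10 were lower and 3 higher, beside 9.34% and 12.5% of all genes. The risen genes were CCND1, the cyclin D1 gene, by 0.38 (adjusted p = 6.88e-04), BCL2L1, which encodes the survival factor BCL-XL, by 0.35 (adjusted p = 2.76e-04), and SOCS3. The fallen genes were MYC by 0.28 (adjusted p = 0.00624), TIMP1, a protease inhibitor gene, by 0.23 (adjusted p = 0.0166), and, named only because the count is small, VEGFA by 0.17 (adjusted p = 0.0232) and ZFP36 by 0.36 (adjusted p = 0.0334). Acute-phase genes of the list, among them CRP, FGG and HP, lay within the background range. With 1 array left out between 1 and 4 of these genes were called lower: 1 without doxycycline replicate B or untreated replicate A, and 2 without doxycycline replicate C or untreated replicate B.

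Genes for subunits of NF-kappaB, AP-1 and C/EBP, factors known to act at cytokine promoters, had mostly small negative changes. Of 15 genes 13 had a negative change, beside 55.1% of all genes, and the median log2 change was -0.12, beside -0.01 over all genes. Of the 15 genes 4 (RELB, FOSB, CEBPB and FOS) lay within the background range in both groups, and ATF3 did in doxycycline. Past the threshold 2 fell and 1 rose, beside 3.84% of all genes lower and 6.06% higher. At an unadjusted p under 0.05 by limma 13 were lower and 1 higher, beside 9.34% and 12.5% of all genes. JUN, an AP-1 subunit gene, had 7.96, 7.84 and 7.93 log2 units in doxycycline, against 8.20, 8.21 and 8.16 untreated. It fell by 0.28 (SE 0.041, adjusted p = 0.00346 by limma), with no overlap and in each of 13 refits. NFKB2, an NF-kappaB subunit gene, fell by 0.18 (adjusted p = 0.0416), and REL, another, rose by 0.20 (adjusted p = 0.0397). The calls of NFKB2 and REL were lost in 8 of 13 refits each, and with 1 array left out the list had 1 or 2 lower genes and 0 or 1 higher: 1 lower without untreated replicate B or any doxycycline array, and 0 higher without any array but doxycycline replicate A. NFKB1 and RELA had changes of -0.10 and -0.11 and did not pass.

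**Figure D4:**
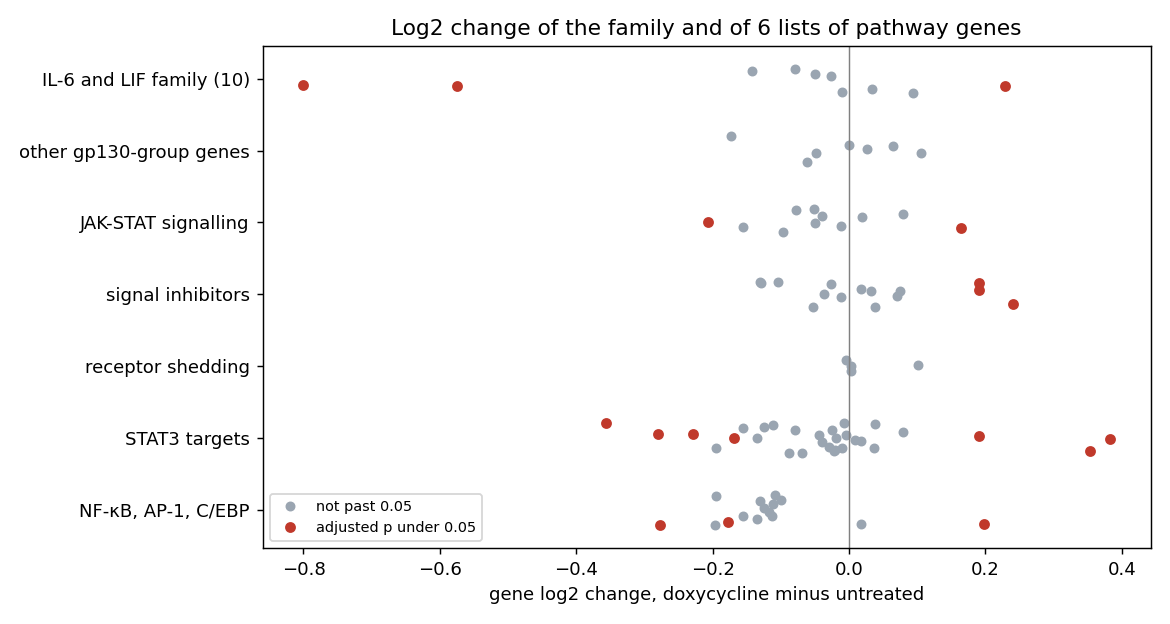
Log2 change of the gene means, doxycycline minus untreated (x axis), for the 10 family genes and for 6 lists of pathway genes (rows); red points have an adjusted p under 0.05 by limma over all genes. LIF and IL6 lie furthest left at -0.80 and -0.58, the pathway genes lie between -0.36 and 0.38, and 13 of 15 transcription factor subunits lie left of 0.

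Likeness of pattern was measured as the Euclidean distance over the 6 arrays between gene values centred on each gene's mean, among 19138 genes with at least 3 rows that are no members. The genes most like IL6 were PLAT, which encodes tissue plasminogen activator (distance 0.0742), SLC14A1, a urea transporter gene (0.0894), and IL1B, the interleukin-1 beta gene (0.100). They had log2 changes of -0.58, -0.53 and -0.53, beside -0.58 for IL6. The genes most like LIF were ZEB1 (distance 0.120), STRADB (0.138) and PLCG1 (0.165), with log2 changes of -0.77, -0.80 and -0.80, beside -0.80 for LIF. IL6 and LIF were 0.318 apart, and 137 genes were nearer to IL6 and 36 nearer to LIF than that. All these values come from the same 6 arrays. The like genes were picked by this distance, so log2 changes near those of IL6 and LIF follow from the choice.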

How the data were processed

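RNA of 3 doxycycline-treated and 3 untreated cultures was measured on 1 array each. The authors deposited log2 intensities, 1 per row and array; the values themselves show the log2 scale. Per the labels' protocols 1 µg of total RNA was biotin-labelled with a FlashTag kit, and Partek is listed, without version or role, per the submitters' processing notes. Background correction, normalization and genome build: not given in the sources used here. Values were used as deposited.

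The 345 control rows were left out. Gene values were means over rows with exactly 1 symbol (672085 rows). Symbols come from the platform annotation and can be old. Genes, rows and rows minus their gene mean (19148 genes with at least 3 rows) were each tested with lmFit and eBayes in limma 3.58.1 under R 4.3.3, group as the single term, with Benjamini-Hochberg adjustment over all genes or rows and a threshold of 0.05. Intervals are limma's 95% intervals. The gene fit and the fit of rows against their gene mean were tested on simulated data, and the other steps were not. Some genes of the lists are not reported here. From each list up to 4 genes with the smallest p past the threshold were named, or 2 where none passed, with those against the majority. JAK1, NFKB1, RELA, CRP, FGG, HP, VEGFA and ZFP36 were named outside this rule. Rows named outside the largest change per gene were picked after their values were seen. The lists share SOCS3, JUNB, FOS, FOSL1, CEBPB and CEBPD. Members and lists were chosen with earlier results of these data known. The labels do not say that the letters mark a shared day or batch, so the letters were not taken as pairs. Samples sharing a letter had deviations from their group means correlating at -0.17 (A), -0.03 (B) and 0.22 (C) over genes. Between different letters these correlations ran from -0.41 (doxycycline A with untreated C) to 0.44 (doxycycline A with untreated B). Alternatives were the median of rows, brighter rows, rows naming several genes, quantile normalization, genes with at least 3 rows, a trended robust prior, the replicate block and leaving out each array.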

Additional observations from a re-analysis of the deposited data

How the results depend on the processing

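LIF stayed lower past the threshold in all 13 alternatives, with log2 changes from -1.07 to -0.76, and IL6 in 12 of 13, all but the median of rows. LIFR kept a positive change in all 13, from 0.17 to 0.45, and lost its call in 7. No depth is known for arrays; signal over background limits OSM, IL11 and IL6R, whose means lie in the background range. For results that changed, the cause was not tested, except that fewer arrays or rows enter some fits.

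Taking the median over rows, 1 member was lower and 0 were higher, the JAK-STAT list had 0 lower and 0 higher, the inhibitors 0 higher, the STAT3 targets 1 lower and 1 higher, the transcription factor subunits 1 lower and 0 higher, and SOCS3 changed by -0.0355. With brighter rows alone 0 members were higher (LIFR 0.30, adjusted p = 0.0644), 0 member rows were uneven, the JAK-STAT list and the inhibitors had 0 higher, the STAT3 targets 2 lower, the subunits 1 lower and 0 higher, and OSM and IL6R changed by 0.0466 and -0.000445, neither past the threshold. With quantile normalization 1 inhibitor was lower and ADAM10 changed by -0.00563.

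With the replicate block 0 members, 0 JAK-STAT genes and 0 subunits were higher, 1 subunit was lower, 1 member row was lower and 0 were uneven; whether the letters mark a shared day or plate is unknown. With 1 array left out there were 0 or 1 higher members, 2 to 4 lower member rows and 0 uneven ones, 0 or 1 lower and 0 or 1 higher JAK-STAT genes, 0 to 2 higher inhibitors, 1 to 4 lower STAT3 targets, 1 or 2 lower and 0 or 1 higher subunits and 0 or 1 lower gp130-group genes. Changes then ran from -0.0273 to 0.0243 for OSM, from -0.0647 to 0.0481 for CTF1 and from -0.00646 to 0.0107 for ADAM10. Including rows that name several genes, genes with at least 3 rows and the trended prior moved none of these counts by over 1.5 times.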

Other observations

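The antisense gene LIFR-AS1 shares its locus with LIFR and was looked at after the LIFR values were seen. Its 24 rows, which also name MIR3650, had a mean of 4.77 ± 0.025 log2 units in doxycycline and 4.79 ± 0.041 untreated (SD, n = 3), within the background range. Row changes ran from -0.17 to 0.14 with a median of -0.03, beside a median of 0.26 over the LIFR rows. By limma 0 of the 24 rows passed in either direction. Only 2 of the 24 rows lay above the background range. They were JUC05001163.hg.1, at 7.09 in doxycycline and 7.08 untreated, and the bright PSR05002079.hg.1, at 11.68 and 11.77.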
